A study of Mus musculus with 144 samples.

Results

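SR splicing factors and the CLK kinases that phosphorylate them were followed in mouse liver through 10 genes: Srsf2, Srsf3, Srsf5, Srsf6, Srsf7, Srsf11, Tra2a, Tra2b, Clk1 and Clk4. These genes were chosen by name, with earlier results of these data known, and were 10 of the 51912 genes counted. They held 50 of the 29199 polyadenylation sites in the authors' filtered list. The data were 144 libraries of 3′ mRNA sequencing, in which reads pile up at the polyadenylated ends of transcripts, so that both the amount of a gene's RNA and the place where it ends are read.

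All livers came from male C57BL/6J mice fed ad libitum under a cycle of 12 h light and 12 h dark. Samples were taken at ZT2, 6, 10, 14, 18 and 22, where ZT (zeitgeber time) counts hours from lights on. At each time there were 6 libraries in each of 4 series. The first held total RNA of wild-type mice, the second nuclear RNA of wild-type mice from nuclei spun through a sucrose cushion, and the third polysomal RNA of wild-type mice from fractions of a sucrose gradient, with cycloheximide in the buffer. The fourth held total RNA of Bmal1-/- mice, which are mutant for the clock transcription factor BMAL1 (gene Arntl). The labels do not say whether replicates, or the 3 wild-type series, came from separate animals, so p-values measure the spread between these libraries. The nuclear, polysomal and Bmal1-/- comparisons all used the same 36 wild-type total libraries, and their results are therefore not independent of each other.

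SR proteins bind exonic enhancers in pre-mRNA through RNA recognition motifs and recruit the splicing machinery through a domain rich in arginine and serine. CLK and SRPK kinases phosphorylate that domain, which moves SR proteins within the nucleus and sets their activity. Many genes of this family also make alternative transcripts, with poison exons or retained introns, that are held in the nucleus or degraded by nonsense-mediated decay. CLK1 is known for transcripts whose introns are detained in the nucleus, and the activity of CLK1 and CLK4 is known to respond to body temperature.

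The promoters were searched for 4 motifs through which the clock or body signals act. The reason was that 3 of the 10 genes were called rhythmic in wild-type total RNA, against 18.9% of all genes tested. None of those 3 calls held in every alternative analysis. RefSeq windows (GRCm38.p6, 250 bases before to 50 after the start) were found for 9 of the 10 genes, in 10 windows, and both strands were read. Neither the E-box CACGTG, the site of BMAL1 and CLOCK, nor the D-box TTATGTAA was found in any of the 10, against 7.15% and 0.94% of 32851 windows of the same length. The core of the ROR and REV-ERB element, AGGTCA, was in 1 window (16.26% of all windows) and the cAMP response element TGACGTCA was in 2 (1.79%). These are matches of letters only. The stretches that hold them are shown 5′ to 3′ with the motif in capitals, since they belong to genes whose levels are described below.
Srsf3, chr17:29032596-29032645, plus strand, motif from 42 to 37 bases before the start: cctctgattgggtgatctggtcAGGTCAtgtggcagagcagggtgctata
Tra2a, chr6:49264050-49264101, minus strand, motif from 27 to 20 bases before the window's start, which is a start 196 bp inside the gene, so that the motif lies 169 to 176 bp after the gene's own start: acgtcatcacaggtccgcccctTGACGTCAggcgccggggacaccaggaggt
Clk4, chr11:51263027-51263078, plus strand, motif from 65 to 58 bases before the start: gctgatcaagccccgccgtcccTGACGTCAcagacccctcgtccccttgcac

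The wild-type total libraries held 5316601 to 9831142 gene counts (median 7749864) and the nuclear libraries 1662449 to 6620128 (median 3993642). Polysomal libraries held 2578048 to 13068044 (median 5058210) and those of Bmal1-/- liver 4379549 to 14281894 (median 7875181). Neat1, a nuclear long noncoding RNA, averaged 167, 1621 and 9.40 CPM (counts scaled to the library's total) in total, nuclear and polysomal RNA. Malat1, also a nuclear RNA, averaged 1839, 1566 and 53.8 CPM, so that it was low in the polysomal but not higher in the nuclear libraries. Arntl was still counted in the Bmal1-/- series, at 11.5 ± 2.98 CPM against 6.74 ± 5.40 in the wild type (SD, n = 36 each). The labels do not say which part of the gene is altered, so this count does not check the genotype. Polysomal replicate 1 stood apart from replicates 2 to 6 at every time, with 29.9 to 653.8 CPM of Scgb1a1, a secretoglobin of airway epithelium, against at most 0.457. Of the markers, 5 hepatocyte genes summed to a median of 67085 CPM in wild-type total, 38367 in nuclear, 33714 in polysomal and 51982 in Bmal1-/- RNA. Summed cholangiocyte markers had medians of 8.30, 14.5, 4.44 and 18.2 CPM in the same order, with Krt19, Krt7 and Epcam at a median of 0 in polysomal RNA. Summed stellate cell markers had medians of 273.5, 144.9, 260.3 and 333.1 CPM, and red cell markers 1286, 542.3, 3956 and 839.7. Kupffer cell markers had medians of 183.4, 167.1, 176.4 and 169.3 CPM and endothelial markers 199.0, 164.9, 172.1 and 196.3. Lymphocyte markers had medians of at most 4.78 CPM and adipocyte markers of at most 1.83, with Cd79a, Adipoq and Plin1 at a median of 0 in every series. Fewer cells of a type and less RNA per cell cannot be told apart in such samples, and the part of these markers in the results below was not tested. In 4 libraries, all at ZT22 (wild-type total replicate 5, nuclear replicate 5, polysomal replicate 1 and Bmal1-/- replicate 6), Xist lay over 100 CPM although the mice were labelled male, and it was at most 5.67 CPM in the other libraries.

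The first question was how RNA of these genes was divided between the nucleus and the polysomes. Srsf5, Clk1, Tra2a, Srsf11 and Clk4 shared 1 pattern: higher in nuclear and lower in polysomal RNA than in total RNA, each relative to the other RNA of the same library, and Srsf6 moved the same way by small amounts. Srsf3 had the opposite pattern, lower in nuclear and higher in polysomal RNA. Tra2b was lower in both fractions. Values were compared as log2 ratios of each series' mean over the 6 times, by edgeR's quasi-likelihood test and Benjamini-Hochberg adjustment over all genes tested at a threshold of 0.05. In nuclear against total RNA 8 of the 10 genes were called, 6 higher and 2 lower, but 83.8% of all 11864 genes tested were called too (41.6% higher and 42.1% lower). In polysomal against total RNA 9 of 10 were called, 2 higher and 7 lower, against 76% of all genes (38.8% higher and 37.2% lower). Being called thus sets the genes apart in neither comparison. The median over the 10 genes was 0.37 in nuclear RNA and −0.68 in polysomal RNA, against −0.01 and 0.02 over all genes tested.

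**Figure D1:**
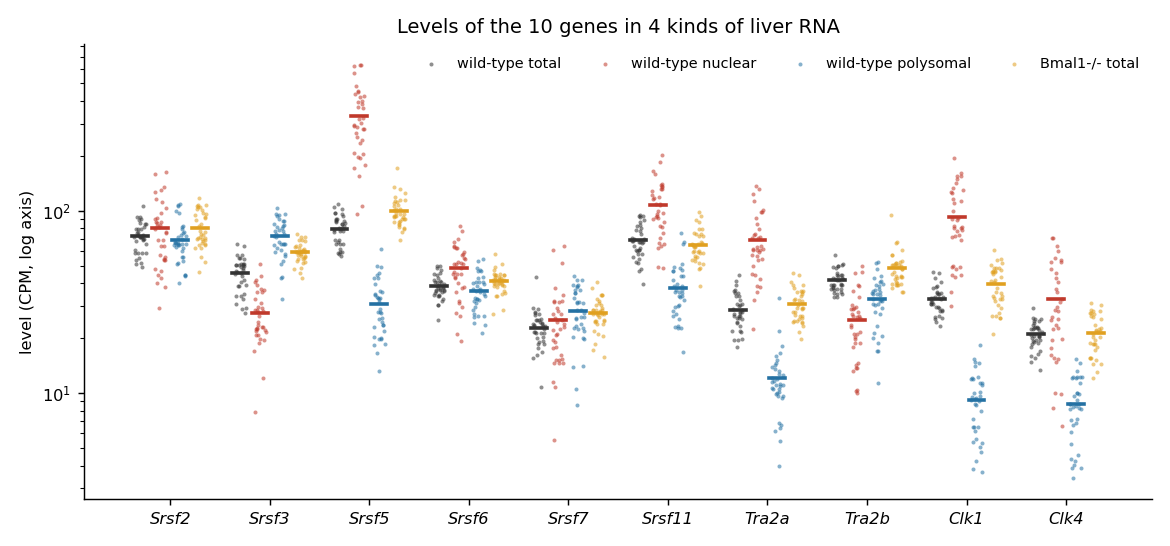
Level of each of the 10 genes in CPM (log axis) in every library of the wild-type total, nuclear, polysomal and Bmal1-/- total series, with 36 points per series and a bar at the mean. Srsf5, Clk1 and Tra2a have the highest means in nuclear and the lowest in polysomal RNA, and Srsf3 has the highest mean in polysomal RNA.

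Srsf5 (SRp40), an SR protein first found as an insulin-induced gene of regenerating liver, had the widest spread between fractions. It lay between 56.7 and 108.9 CPM in total RNA (median 80.3), between 96.2 and 632.1 in nuclear RNA (298.3) and between 13.1 and 61.7 in polysomal RNA (28.4). Most nuclear libraries lay above all total libraries and most polysomal libraries lay below them, with a small overlap on each side. The ratio to total RNA was 1.94 on the log2 scale in nuclear RNA (SE 0.09, adjusted p = 3.63e-32, edgeR) and −1.46 in polysomal RNA (SE 0.07, adjusted p = 2.03e-29, edgeR). Both directions were seen at 6 of 6 times.

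Clk1, a dual-specificity kinase that phosphorylates SR proteins, ranged from 23.3 to 45.8 CPM in total RNA (median 32.6). It ranged from 30.2 to 194.1 in nuclear RNA (82.0) and from 3.67 to 18.4 in polysomal RNA (9.16). It was the only one of the 10 genes for which every polysomal library lay below every total library. The log2 ratios were 1.39 in nuclear RNA (SE 0.09, adjusted p = 5.51e-23, edgeR) and −1.89 in polysomal RNA (SE 0.10, adjusted p = 7.57e-27, edgeR).

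Clk4, its close relative, had lower values, from 13.4 to 29.1 CPM in total RNA (median 20.7), from 6.59 to 70.6 in nuclear RNA (28.4) and from 3.41 to 15.3 in polysomal RNA (8.55). Its nuclear libraries spread on both sides of the total libraries, whereas its polysomal libraries overlapped the total ones only at the edge. The log2 ratio was 0.50 in nuclear RNA (SE 0.12, adjusted p = 7.81e-05, edgeR) and −1.33 in polysomal RNA (SE 0.11, adjusted p = 4.07e-18, edgeR). With replicates 1 to 3 alone the nuclear value of Clk4 was 0.30 and not called (adjusted p = 0.162). The polysomal values of both kinases rest on few reads, at most 124 for Clk1 and 77 for Clk4 in any library.

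Tra2a, a transformer-2 homologue that binds GA-rich exonic enhancers, ranged from 17.8 to 44.1 CPM in total RNA (median 27.6). In nuclear RNA it ranged from 22.4 to 136.4 (61.8) and in polysomal RNA from 3.96 to 33.1 (11.1). The log2 ratios were 1.17 (SE 0.08, adjusted p = 1.09e-22, edgeR) and −1.33 (SE 0.09, adjusted p = 6.72e-21, edgeR). Its paralogue Tra2b did otherwise, with a range of 33.6 to 56.9 CPM in total RNA (median 40.5), 9.94 to 49.5 in nuclear RNA (24.7) and 11.4 to 52.3 in polysomal RNA (33.5). The Tra2b ratios were −0.83 in nuclear RNA (SE 0.08, adjusted p = 7.91e-16, edgeR) and −0.43 in polysomal RNA (SE 0.07, adjusted p = 1.29e-08, edgeR). The ranges of both genes overlapped between series.

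Srsf3 (SRp20), which couples splicing to mRNA export, ranged from 27.5 to 65.8 CPM in total RNA (median 47.0), from 7.87 to 50.7 in nuclear RNA (25.5) and from 32.9 to 103.7 in polysomal RNA (73.5). The nuclear libraries lay mostly below and the polysomal libraries mostly above the total ones, at 6 of 6 times each, with overlap. Its ratios were −0.81 (SE 0.08, adjusted p = 2.42e-15, edgeR) and 0.61 (SE 0.08, adjusted p = 3.36e-11, edgeR). Polysomal replicate 1, which stood apart, averaged 51.2 CPM and replicates 2 to 6 averaged 76.4, against 45.4 in total RNA.

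Srsf11, an SR-related protein, averaged 68.7 ± 14.4 CPM in total, 107.2 ± 36.3 in nuclear and 37.9 ± 13.0 in polysomal RNA (SD, n = 36 each), with ratios of 0.55 (SE 0.07, adjusted p = 5.55e-10, edgeR) and −0.93 (SE 0.09, adjusted p = 1.11e-15, edgeR). The other SR genes differed little between fractions. Srsf2 (SC35), a core protein of nuclear speckles, had ratios of 0.04 (adjusted p = 0.613, edgeR) and −0.12 (adjusted p = 0.0980, edgeR), neither called. Polysomal Srsf2 was called lower with median-ratio size factors (−0.22, adjusted p = 0.00212, edgeR), by DESeq2 (−0.22, adjusted p = 0.00143), with a mean of at least 1 count (−0.17, adjusted p = 0.0222, edgeR), with replicates 1 to 3 alone (−0.31, adjusted p = 0.0130, edgeR) and without replicate 3 or 4 (−0.17 and −0.19, adjusted p = 0.0367 and 0.02165, edgeR). Srsf6 (SRp55) was higher in nuclear RNA by 0.23 (SE 0.06, adjusted p = 0.000478, edgeR) and lower in polysomal RNA at −0.15 (SE 0.06, adjusted p = 0.0264, edgeR). Srsf7 (9G8), an export adaptor like Srsf3, was at 0.03 in nuclear RNA (adjusted p = 0.772, edgeR) and higher in polysomal RNA by 0.24 (SE 0.09, adjusted p = 0.0161, edgeR). The nuclear call of Srsf6 was lost with a mean of at least 1 count (0.12, adjusted p = 0.0759, edgeR). The polysomal call of Srsf7 was lost with another scaling, since Srsf7 in polysomal RNA was at 0.14 with median-ratio size factors (adjusted p = 0.160, edgeR). The polysomal call of Srsf6 was also lost without replicate 4, 5 or 6 (highest adjusted p = 0.1645) and that of Srsf7 without replicate 3, 5 or 6 (highest adjusted p = 0.1142), both with edgeR.

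**Figure D2:**
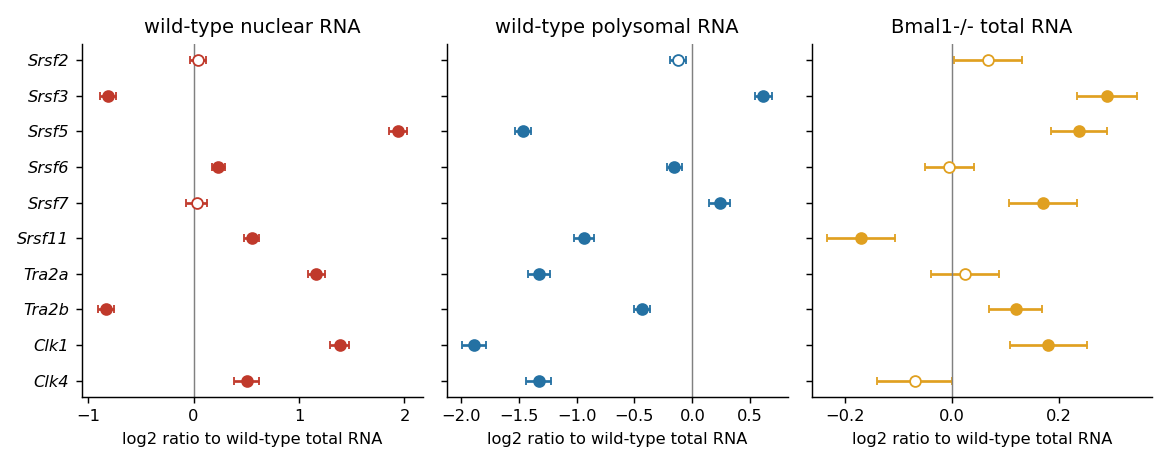
Log2 ratio of each gene to wild-type total RNA in nuclear, polysomal and Bmal1-/- total RNA, with bars of 1 standard error. Filled points passed the threshold of 0.05 on the adjusted p. The ratios of Srsf5 are 1.94, −1.46 and 0.24 and those of Clk1 are 1.39, −1.89 and 0.18.

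The sites at which reads of these genes lay differed between the fractions as well. Each filtered site was given to a gene by strand and position in the RefSeq table (GRCm38.p6), and its share is the percentage of the gene's filtered site counts in a library. For Clk1, which is without a strand in that table, the strand came from the site counts. Of the 50 sites, 42 held at least 5% of their gene's site counts in some series and are described, and 27 of the 50 lay over 1000 bp before the annotated gene end. Exon and intron positions and site sequences were not used here, so positions are given as distances from the gene's start. Whether a site far upstream marks a true end of the RNA was not tested. Usage was tested within a gene, with the gene's site total as an offset. Genes needed a mean of at least 50 site counts over both series of a comparison. Polysomal libraries averaged 35.7 site counts for Clk1, 29.6 for Clk4 and 43.4 for Tra2a. These genes passed that minimum only through their total libraries (142.9, 103.6 and 121.4), so their polysomal usage tests rest on few counts. In nuclear against total RNA 31 of 38 tested sites differed, 14 with a higher and 17 with a lower share, against 78.6% of all 11745 sites tested (35.6% higher and 43% lower). In polysomal against total RNA 30 of 40 differed, 15 in each direction, against 70.5% of 12436 (33.3% higher and 37.2% lower). Both counts of differing sites are near the background. The 40 include sites of Clk1, Clk4 and Tra2a, and only 26 sites passed the minimums in the polysomal series alone.

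In Srsf5 (chr12:80945495-80950507, plus strand) the site counts of nuclear RNA lay mostly at an early site. The site at chr12:80946661-80946860, 1265 bp after the gene's start and 3747 bp before its end, held 16.8 ± 4.73% of the site counts in total RNA, 62.2 ± 12.3% in nuclear RNA and 5.75 ± 4.39% in polysomal RNA (SD, n = 36 each). Its share lay between 1.60 and 25.1% in the total libraries and between 25.3 and 80.2% in the nuclear ones, so that those ranges did not overlap. Polysomal shares lay between 0 and 24.1%. The log2 difference in usage was 1.90 in nuclear RNA (SE 0.10, adjusted p = 1.18e-26, edgeR) and −1.59 in polysomal RNA (SE 0.18, adjusted p = 1.005e-11, edgeR).

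The shares of the Srsf5 sites nearest the gene's end moved the other way in nuclear RNA. The site at chr12:80950429-80950511, 37 bp from the gene's end, held 35.2% in total, 8.35% in nuclear and 48.8% in polysomal RNA, and its log2 differences were −2.10 (adjusted p = 3.295e-23, edgeR) and 0.47 (adjusted p = 1.02e-09, edgeR). The neighbouring site at chr12:80950129-80950192 held 28.1%, 8.49% and 20.6%, a lower share in both fractions. In CPM that neighbouring site averaged 20.6 in total and 25.9 in nuclear RNA, and the site at the end 26.6 and 23.2. The share of chr12:80949094-80949120 rose from 2.00% to 7.36% in nuclear RNA (1.855, adjusted p = 4.02e-16, edgeR). The site chr12:80949501-80949573 held 10.9%, 12.8% and 18.3%, with a nuclear call (0.24, adjusted p = 0.0455, edgeR) that was lost without replicate 1, 4, 5 or 6 (highest adjusted p = 0.394). The site chr12:80950349-80950379 held 6.63%, 0.744% and 5.11%, and its polysomal share was not called. In CPM, sites within 1000 bp of the end (a distance chosen after seeing the data) summed to 60.7 in total, 89.9 in nuclear and 26.3 in polysomal RNA. Sites further upstream summed to 13.7, 217.5 and 1.73. The nuclear excess of Srsf5 was thus carried mainly by counts at the early sites.

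**Figure D3:**
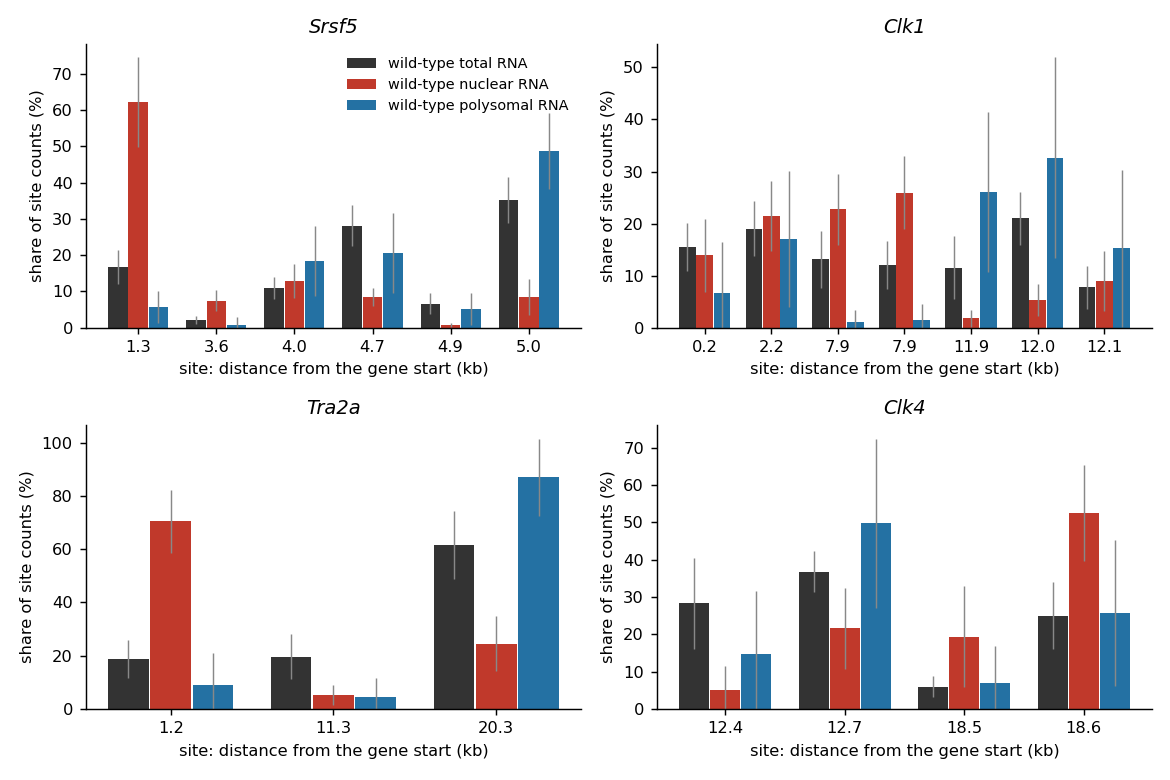
Share of the gene's site counts (percent, mean and SD over 36 libraries) at each filtered site of Srsf5, Clk1, Tra2a and Clk4, placed by its distance from the gene's start in kb, in wild-type total, nuclear and polysomal RNA. In Srsf5 and Tra2a the first site, 1265 and 1228 bp after the start, holds most nuclear counts at the filtered sites (62.2% and 70.5%). Few of the polysomal site counts lie there (5.75% and 8.81%). The filtered sites of Tra2a held 35.2% of its nuclear gene counts.

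Tra2a (chr6:49243921-49264248, minus strand) had the same arrangement. Its site at chr6:49262990-49263050, 1228 bp after the start and 19099 bp before the end, held 18.8 ± 7.10% in total, 70.5 ± 11.8% in nuclear and 8.81 ± 12.1% in polysomal RNA (SD, n = 36 each). The nuclear shares, from 43.6 to 88.9%, lay above all total shares, from 5.68 to 35.9%. The log2 differences were 1.93 (SE 0.08, adjusted p = 5.18e-31, edgeR) and −1.24 (SE 0.29, adjusted p = 0.000149, edgeR). The site at the gene's end, chr6:49243917-49243966, held 61.6%, 24.4% and 86.9%, with log2 differences of −1.31 (adjusted p = 8.69e-18, edgeR) and 0.50 (adjusted p = 1.765e-10, edgeR).

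The third Tra2a site, chr6:49252893-49252937, lies 11333 bp after the start and was low in both fractions, at 5.10% in nuclear and 4.32% in polysomal RNA against 19.6% in total RNA. Its log2 differences were −2.04 (adjusted p = 6.47e-15, edgeR) and −2.39 (adjusted p = 4.25e-09, edgeR). The filtered sites of Tra2a held 53.9% of its gene counts in total RNA and 35.2% in nuclear RNA, so the shares describe only that portion of the reads.

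In Clk1 (chr1:58411988-58424088, minus strand) 7 sites held at least 5%. The filtered sites of Clk1 held 55.55% of its gene counts in total RNA and 46.6% in nuclear RNA, so the shares leave out many reads. A site outside the filtered list, chr1:58416644-58416694, averaged 14.1 CPM in nuclear RNA, above the 11.6 of the largest filtered site. A pair of internal sites, chr1:58416175-58416204 and chr1:58416138-58416158, 4201 and 4160 bp before the end, held 13.1% and 12.1% in total RNA and 22.8% and 25.9% in nuclear RNA. In polysomal RNA they held 0.975% and 1.47%. The log2 differences in polysomal RNA were −3.81 (SE 0.34, adjusted p = 4.26e-15, edgeR) and −3.48 (SE 0.34, adjusted p = 1.68e-13, edgeR), and in nuclear RNA 0.75 (adjusted p = 3.61e-08, edgeR) and 1.08 (adjusted p = 3.50e-14, edgeR). Both were thus common among the nuclear site counts of Clk1. In polysomal RNA they averaged 0.0762 and 0.1035 CPM, where all filtered Clk1 sites together averaged 35.7 counts per library. Both sites entered the polysomal test through the counts of the total libraries, so that test draws on very few polysomal counts.

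The distal Clk1 sites had the reverse pattern. The site at chr1:58412044-58412153, 110 bp from the end, held 21.0% in total, 5.30% in nuclear and 32.7% in polysomal RNA, and the site at chr1:58412171-58412203 held 11.5%, 1.77% and 25.97%. Their log2 differences in nuclear RNA were −1.92 (adjusted p = 2.36e-18, edgeR) and −2.72 (adjusted p = 7.60e-15, edgeR). The last site, chr1:58411999-58412028, held 7.71%, 8.89% and 15.2% and was higher only by the polysomal test, at 0.86 (adjusted p = 0.00734, edgeR), a call lost without replicate 2 (adjusted p = 0.305). A site 151 bp after the start, chr1:58423922-58423953, held 15.6%, 13.9% and 6.63%, lower in polysomal RNA at −1.69 (adjusted p = 2.065e-07, edgeR). A site at chr1:58421848-58421885 held 19.0%, 21.5% and 17.1% and was called in neither.

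In CPM, the Clk1 sites within 1000 bp of the end summed to 7.21 ± 1.64 in total, 7.16 ± 4.62 in nuclear and 4.95 ± 2.47 in polysomal RNA (SD, n = 36 each). The upstream sites summed to 10.99 ± 3.19, 36.1 ± 16.5 and 1.65 ± 1.04. Total and nuclear RNA thus had near equal means at the end of Clk1, and the mean upstream sum was higher in nuclear RNA. Site counts per polysomal library were few, with a median of 32 and a lowest value of 5, so single polysomal shares are coarse.

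Clk4 (chr11:51263114-51281770, plus strand) ran against this pattern. Its filtered sites held 63.15% of its gene counts in total RNA and 57.0% in nuclear RNA. Its sites nearest the end gained share in nuclear RNA: chr11:51281683-51281749, 54 bp from the end, held 25.02% in total, 52.5% in nuclear and 25.6% in polysomal RNA, with a nuclear log2 difference of 1.07 (SE 0.11, adjusted p = 8.17e-14, edgeR). The adjacent site chr11:51281642-51281664 rose from 5.95% to 19.3% in nuclear RNA (1.605, adjusted p = 1.22e-10, edgeR). Its upstream sites, 6231 and 5944 bp before the end, lost share in nuclear RNA: chr11:51275529-51275550 held 28.3%, 4.93% and 14.8%, and chr11:51275788-51275865 held 36.8%, 21.6% and 49.7%. The polysomal increase of the latter, 0.43 (adjusted p = 0.00200, edgeR), was lost without replicate 1 (adjusted p = 0.0808), the replicate that stood apart.

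In Tra2b (chr16:22244552-22266005, minus strand) the early site at chr16:22259165-22259257, 6794 bp after the start, held 30.5 ± 5.81% in total, 43.4 ± 11.5% in nuclear and 12.7 ± 8.13% in polysomal RNA (SD, n = 36 each). Its log2 differences were 0.51 (adjusted p = 2.94e-09, edgeR) and −1.25 (adjusted p = 1.17e-11, edgeR). The main distal site, chr16:22245861-22246026, held 49.5%, 40.5% and 74.2%, with −0.31 (adjusted p = 0.000150, edgeR) and 0.58 (adjusted p = 2.44e-17, edgeR). A second early site, chr16:22259043-22259136, held 16.1%, 13.8% and 7.04% and was lower in polysomal RNA only by its own test, at −1.21 (adjusted p = 3.09e-09, edgeR). In CPM the first early site held 11.3 in total and 9.59 in nuclear RNA, and the main distal site 18.3 and 8.46.

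Srsf11 (chr3:158010915-158036667, minus strand) had its end site chr3:158010912-158011046 at 17.98% in total, 12.5% in nuclear and 38.8% in polysomal RNA, with log2 differences of −0.50 (adjusted p = 4.63e-05, edgeR) and 1.08 (adjusted p = 3.04e-13, edgeR). Of its upstream sites, chr3:158016319-158016391 (12.9%, 17.4% and 8.01%) was higher in nuclear RNA at 0.45 and lower in polysomal RNA at −0.67. The largest site of Srsf11 in total RNA, chr3:158012778-158012873 (35.3%, 31.1% and 21.8%), had a lower share in both. Its nuclear call was lost without replicate 1 or 6 (highest adjusted p = 0.1115, edgeR). The site at chr3:158012382-158012452 rose from 23.3% to 31.1% in nuclear RNA and was 21.7% in polysomal RNA, not called. A site past the annotated end, chr3:158010497-158010526, held 5.73%, 2.43% and 8.54%. Its polysomal call (0.50, adjusted p = 0.0227, edgeR) was lost without replicate 2, 3 or 5 (highest adjusted p = 0.251). The filtered sites of Srsf11 held 66.85% of its gene counts in total RNA and 54.3% in nuclear RNA.

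In the remaining SR genes every described site lay within 1882 bp of the gene's end. In Srsf3 (chr17:29032660-29043372, plus strand) the main site, chr17:29041945-29042082, held 54.5% in total, 67.8% in nuclear and 44.3% in polysomal RNA, and its log2 differences were 0.31 (adjusted p = 7.99e-10, edgeR) and −0.30 (adjusted p = 3.82e-07, edgeR). The more distal site, chr17:29042708-29042783, held 21.4%, 12.5% and 27.2%, with −0.80 (adjusted p = 2.48e-08, edgeR) and 0.34 (adjusted p = 4.61e-05, edgeR). Of the smaller Srsf3 sites, chr17:29042101-29042267 (13.3%, 15.2% and 16.2%) and chr17:29042800-29042828 (4.26%, 1.65% and 7.29%) were higher in polysomal RNA, at 0.28 and 0.75, and chr17:29041872-29041928 held 5.33% in total RNA. In Srsf6 (chr2:162931508-162937121, plus strand) the order was reversed in nuclear RNA, where the distal site chr2:162936993-162937119 rose from 39.4% to 56.5% (0.51, adjusted p = 1.21e-14, edgeR) and the site 1882 bp upstream of the end, chr2:162935122-162935356, fell from 47.9% to 31.6%. Their polysomal shares were 39.7% and 45.1%, neither called, and the site between them, chr2:162936914-162936960, held 11.4%, 11.04% and 13.8%, called in neither fraction.

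In Srsf2 (chr11:116849897-116853675, minus strand) the most distal site, chr11:116849900-116849948, rose from 11.2% to 23.8% in nuclear RNA (1.09, adjusted p = 5.82e-15, edgeR) and was 16.4% in polysomal RNA (0.54, adjusted p = 6.54e-06, edgeR). The most upstream site of Srsf2, chr11:116850633-116850719, rose from 9.87% to 19.0% in polysomal RNA (0.94, adjusted p = 1.35e-14, edgeR). Its main site, chr11:116850049-116850174, held 65.7%, 60.7% and 58.2%, a lower share in both fractions. The nuclear call was lost without replicate 5 (adjusted p = 0.0809, edgeR). The share of chr11:116850212-116850281 (13.2%, 8.10% and 6.35%) was also lower in both. In Srsf7 (chr17:80200080-80207369, minus strand) 2 sites held near equal shares in every series, chr17:80201307-80201429 at 49.7%, 53.8% and 47.8% and chr17:80200077-80200226 at 50.3%, 46.2% and 52.2%. The nuclear test called the second of them at −0.15 (adjusted p = 0.0291, edgeR), a call lost without replicate 1, 2 or 5 (highest adjusted p = 0.1422), and the polysomal test called neither.

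The next question was what differed in Bmal1-/- total RNA. The differences were small beside those between fractions: Srsf3, Srsf5, Srsf7, Clk1 and Tra2b were higher and Srsf11 was lower, each by at most 0.29 on the log2 scale. These were 6 of 10 genes, against 44.1% of all 12082 genes tested (22.4% higher and 21.7% lower). The median over the 10 genes was 0.09 and that over all genes 0.01. With library totals as the scaling, an alternative chosen after seeing the data, the higher share of all calls moved from 50.7% to 71.7%. Under that scaling Srsf11 was at −0.08 (adjusted p = 0.360, edgeR) and not called, while Srsf2 was called at 0.16 (adjusted p = 0.0426, edgeR).

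Srsf3 ranged from 42.7 to 74.4 CPM in Bmal1-/- liver (median 59.45) against 27.5 to 65.8 in the wild type (47.0), and its mean was higher at 6 of 6 times, with overlap. The log2 difference of Srsf3 was 0.29 (SE 0.06, adjusted p = 1.735e-05, edgeR). Srsf5 ranged from 68.8 to 170.6 CPM (median 94.6) against 56.7 to 108.9 (80.3), higher at 5 of 6 times, and its difference was 0.24 (SE 0.05, adjusted p = 0.000136, edgeR). These calls of Srsf3 and Srsf5 held in all 15 alternative analyses.

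The remaining Bmal1-/- calls were weaker. Clk1 averaged 39.6 ± 9.87 against 32.7 ± 5.53 CPM (SD, n = 36 each; 0.18, adjusted p = 0.0357, edgeR), higher at 6 of 6 times, and was not called without replicate 1, 2 or 4 (highest adjusted p = 0.166). Srsf7 was at 0.17 (adjusted p = 0.0251, edgeR), lost without replicate 2, 3, 5 or 6 (highest adjusted p = 0.1305). Tra2b was at 0.12 (adjusted p = 0.0439, edgeR), lost without any 1 of replicates 2 to 6 (highest adjusted p = 0.323). Srsf11 fell by 0.17 on the log2 scale (adjusted p = 0.0238, edgeR), with a mean below the wild type at 3 of 6 times, and was not called without replicate 3 (adjusted p = 0.226). Srsf2 (0.07, adjusted p = 0.411), Srsf6 (−0.005, adjusted p = 0.947), Tra2a (0.02, adjusted p = 0.786) and Clk4 (−0.07, adjusted p = 0.443) were not called by edgeR. For Srsf6 the parts of the series went opposite ways. It was called at 0.22 with replicates 1 to 3 alone (adjusted p = 0.00237, edgeR) and at −0.24 with replicates 4 to 6 alone (adjusted p = 0.00191, edgeR).

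Site usage in Bmal1-/- liver differed at 5 of 39 sites, 3 with a higher and 2 with a lower share, against 8.96% of all 13249 sites tested (4.82% higher and 4.14% lower). In Srsf6 the upstream site chr2:162935122-162935356 rose from 47.9 ± 6.52% to 55.8 ± 9.33% (SD, n = 36 each; 0.23, adjusted p = 0.00224, edgeR), and the distal site chr2:162936993-162937119 fell from 39.4% to 32.8% (−0.27, adjusted p = 0.002485, edgeR). Both were lost without replicate 5 (adjusted p = 0.0769 and 0.0786), and the first also without replicate 6 (adjusted p = 0.0578). The Clk1 site chr1:58416175-58416204 rose from 13.1% to 18.4% (0.45, adjusted p = 0.00693, edgeR), lost without replicate 4 (adjusted p = 0.124). The Srsf11 end site rose from 17.98% to 21.3% (0.24, adjusted p = 0.0405, edgeR), lost without replicate 1, 3, 4 or 6 (highest adjusted p = 0.173). The main Srsf2 site, chr11:116850049-116850174, fell from 65.7% to 60.4% (−0.12, adjusted p = 0.000151, edgeR), a call that held without any 1 replicate and was lost with replicates 1 to 3 alone (−0.05, adjusted p = 0.3585).

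Time of day was tested with a 24 h cosine and sine. In wild-type total RNA 3 of the 10 genes were rhythmic, Srsf5, Srsf6 and Tra2a, against 18.9% of all 11964 genes tested. The median peak-to-trough difference of the 10 genes was 0.24 and that of all genes 0.32 on the log2 scale. In nuclear RNA none of the 10 was called by edgeR (1 at an unadjusted p under 0.05, 0 by DESeq2), against 5.99% of 11172 genes. In polysomal RNA 1 was called, Srsf5, against 7.9% of 10691. In Bmal1-/- total RNA none was called by edgeR (1 at an unadjusted p under 0.05, 0 by DESeq2), against 0.00825% of 12126.

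Srsf5 was high in the light phase in both series that called it. In wild-type total RNA it lay between 65.4 and 108.9 CPM at ZT2 (median 95.0) and between 57.7 and 80.3 at ZT18 (65.8). The mean fell from 92.6 at ZT2 to 66.4 at ZT18, and the libraries of those times overlapped. The fitted curve peaked at ZT4.59 with a peak-to-trough fold of 1.32 (log2 0.40, SE 0.09, adjusted p = 0.00590, edgeR).

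Polysomal Srsf5 moved from a mean of 41.1 CPM at ZT6 (33.4 to 49.0, median 41.1) to 21.0 at ZT18 (16.6 to 27.8, median 19.9). All 6 libraries at ZT6 lay above all 6 at ZT18. The curve peaked at ZT4.71 with a fold of 1.70 (log2 0.76, SE 0.18, adjusted p = 0.0129, edgeR). The call was lost without replicate 1 (0.70, adjusted p = 0.0650) or replicate 5 (0.66, adjusted p = 0.115). By edgeR none of the 10 genes differed in rhythm between polysomal and total RNA (1 with an unadjusted p under 0.05, 0 by DESeq2), and none between the nuclear and the total libraries (0 with an unadjusted p under 0.05, 0 by DESeq2). Of all genes, 0% were called in the polysomal and 0% in the nuclear test of that difference.

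In Bmal1-/- liver the mean of Srsf5 went from 91.8 CPM at ZT2 to 111.9 at ZT22, where single libraries ranged from 68.8 to 170.6. Its curve had a log2 peak-to-trough of 0.15 and was not called (adjusted p = 0.9999, edgeR). The rhythm of Srsf5 differed between the genotypes (log2 size of the difference 0.54, SE 0.15, adjusted p = 0.0485, edgeR), the 1 such call among the 10 genes, against 5.18% of all genes. That call lay near the threshold: it was lost without replicate 1, 2, 3, 5 or 6 (highest adjusted p = 0.273), and with median-ratio size factors (adjusted p = 0.0572).

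**Figure D4:**
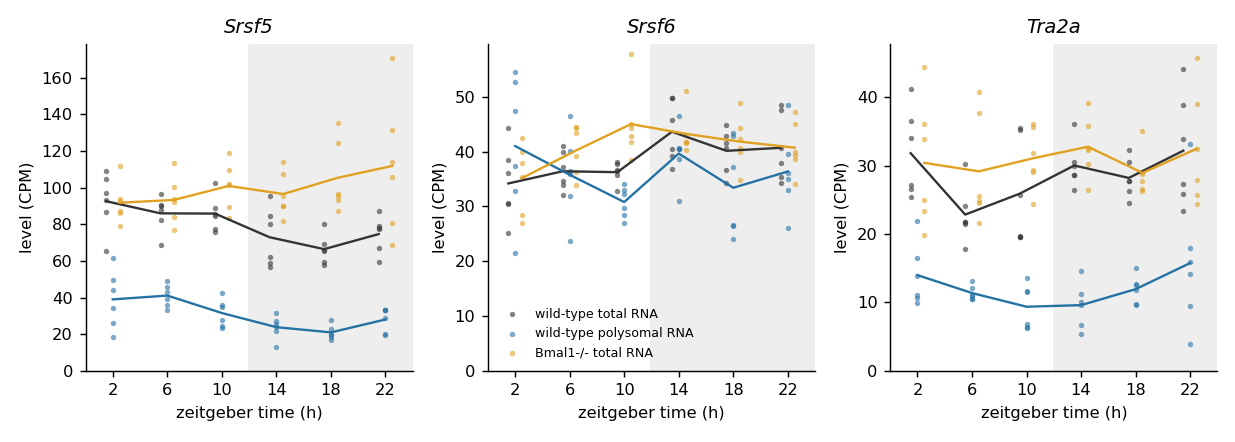
CPM of Srsf5, Srsf6 and Tra2a at ZT2 to ZT22 in wild-type total, wild-type polysomal and Bmal1-/- total RNA, with 6 libraries per point in time, lines through the means and the dark phase in grey. Wild-type Srsf5 falls from a mean of 92.6 CPM at ZT2 to 66.4 at ZT18, and the Bmal1-/- means lie between 91.8 and 111.9.

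Srsf6 had the opposite timing. Its wild-type total libraries lay between 25.2 and 44.3 CPM at ZT2 (median 33.4) and between 36.9 and 49.8 at ZT14 (43.0), with overlap. The curve peaked at ZT17.4 with a log2 peak-to-trough of 0.33 (SE 0.09, adjusted p = 0.03095, edgeR), and was not called without replicate 1, 2, 4 or 6 (highest adjusted p = 0.167). Tra2a lay between 17.8 and 30.2 CPM at ZT6 (median 21.8) and between 23.4 and 44.1 at ZT22 (30.6), again overlapping. Its curve peaked at ZT20.65 with a log2 peak-to-trough of 0.44 (SE 0.12, adjusted p = 0.0257, edgeR). It was lost without replicate 4, 5 or 6 (highest adjusted p = 0.250), and without the libraries with Xist over 100 CPM (0.38, adjusted p = 0.0755). In polysomal RNA Tra2a (0.75, adjusted p = 0.0975) and Tra2b (0.56, adjusted p = 0.0941) were not called by edgeR.

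Tra2a site shares were also called rhythmic in wild-type total RNA, but these calls held in no fit with 1 replicate left out. Usage was called rhythmic at 2 of 40 sites, both in Tra2a, against 0.355% of all 12954 sites tested. The share of the site at the gene's end had means of 68.8, 54.7, 47.1, 60.1, 64.3 and 74.3% at ZT2 to ZT22, and its log2 peak-to-trough was 0.59 (SE 0.11, peak ZT21.8, adjusted p = 0.0211, edgeR). The share of the early site had means of 13.5, 19.4, 26.3, 21.1, 20.8 and 11.9%, with 1.01 (SE 0.21, peak ZT11.65, adjusted p = 0.0374, edgeR). The 2 sites thus moved in opposite directions, as shares of 1 total partly must. At the early site the libraries ran from 14.3 to 35.9% at ZT10 (median 27.4) and from 5.68 to 20.1% at ZT22 (10.7), with overlap.

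Both Tra2a site calls were lost when any 1 replicate was left out, with adjusted p up to 0.156 for the end site and 0.271 for the early site. The middle site (1.03, peak ZT8.44, adjusted p = 0.126, edgeR) was not called. Usage rhythms were called by edgeR at 0 of 35 sites in nuclear RNA (0 at an unadjusted p under 0.05), 0 of 26 in polysomal RNA (2) and 0 of 39 in Bmal1-/- RNA (0). Of all sites, 0.0496%, 0.0283% and 0% were called there, and DESeq2 was not run on sites. In Bmal1-/- liver the end site's means lay between 52.9 and 62.4%. The difference in usage rhythm between genotypes was not tested.

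**Figure D5:**
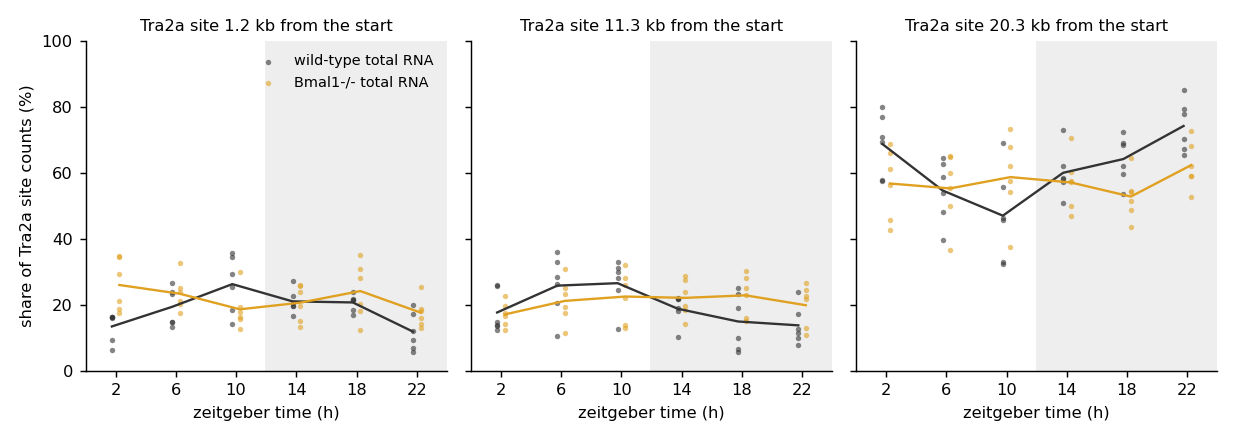
Share of Tra2a site counts (percent) at the early, middle and end site against ZT in wild-type and Bmal1-/- total RNA, with points for libraries and lines through the means of 6. In the wild type the end site runs from a mean of 47.1% at ZT10 to 74.3% at ZT22, and in Bmal1-/- from 52.9% at ZT18 to 62.4% at ZT22.

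Other genes of the same pathway were counted from 3 lists. Of the other SR proteins and SR kinases 7 of 10 were tested in nuclear RNA, where 5 were higher and 1 lower, against 41.6% and 42.1% of all genes: Clk2 was at 1.39, Srsf9 at 0.43 and Clk3 at 0.41, while Srsf10, a splicing repressor when dephosphorylated, was at −1.25. In polysomal RNA 3 of 8 were higher and 4 lower (38.8% and 37.2% of all genes), with Srsf9 at 1.43, Clk3 at −1.01 and the SR protein kinase Srpk2 at −0.93. The 3 higher include Srsf1, at 5.99, which passed the count minimum only through polysomal replicates 2 to 6 (77 to 650 counts). Its direction was fixed by that filter, so its call is no result and the count of 3 of 8 cannot be set against the background. Polysomal replicate 1 held at most 3 counts of Srsf1 and any wild-type total library at most 10. In Bmal1-/- liver 2 of 7 were higher, Srpk1 (0.47) and Srpk2 (0.16), and 1 lower, Clk3 (−0.17), against 22.4% and 21.7% of all genes.

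The kinases Srpk1 and Srpk2 were the 2 of 7 with a rhythm in wild-type total RNA, against 18.9% of all genes, and their fitted peaks fell at different times. Srpk1 peaked at ZT16.9 (log2 peak-to-trough 0.56) and Srpk2 at ZT7.98 (0.46). Both also differed in rhythm from Bmal1-/- liver, with sizes of 0.73 and 0.65 (2 of 7, against 5.18% of all genes). In polysomal RNA Srpk2 was the 1 of 8 called rhythmic, against 7.9% of all genes.

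Of 18 other nuclear proteins rich in arginine and serine, 12 were higher and 3 lower in nuclear RNA (41.6% and 42.1% of all genes), with Acin1 at 1.72, Srrm2 at 1.215, Luc7l2 at 0.97 and Rbm39 at −1.14. In polysomal RNA 2 were higher and 14 lower (38.8% and 37.2% of all genes), led by Pnisr (−3.14), Son (−2.88), Pnn (−2.26) and Prpf4b (−1.80). The list's medians were 0.37 in nuclear and −1.05 in polysomal RNA, against −0.01 and 0.02 over all genes. In Bmal1-/- liver 3 were higher and 1 lower (22.4% and 21.7% of all genes), with Rbm25 at −0.29, Srrm1 at 0.24, Pnn at 0.24 and U2af2 at 0.11. In wild-type total RNA 5 of 18 were rhythmic (18.9% of all genes), among them Rbm25 (0.78), Rsrc1 (0.72), Luc7l (0.62) and Pnn (0.49), and Rbm25 and Rsrc1 also differed in rhythm from Bmal1-/- liver (1.03 and 0.99), 2 of 18 against 5.18% of all genes.

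Of 10 factors of nonsense-mediated decay, which degrades many poison-exon transcripts, 6 were higher and 4 lower in nuclear RNA (41.6% and 42.1% of all genes), with Smg9 at 1.45, Smg5 at 1.375, Smg1 at 0.95 and Smg6 at 0.85. In polysomal RNA 2 were higher and 6 lower (38.8% and 37.2% of all genes), with Smg8 at 1.63, Upf3b at −1.65, Smg1 at −1.39 and Upf2 at −1.29. In Bmal1-/- liver Smg6 (0.33) and Upf3a (0.24) were the 2 of 10 called, both higher, against 22.4% of all genes. Smg5 was the 1 of 10 rhythmic in wild-type total RNA (0.54, peak ZT16.1), against 18.9% of all genes.

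Likeness between genes was taken as Pearson's r over the 24 means of series and time, each series centred on its own mean, among 5252 genes. Clk1 and Clk4 had too few polysomal counts to be included. The 10 genes did not form 1 group. Srsf2 had Srsf7 and Srsf6 among its 100 most similar genes (r = 0.73 and 0.71), and Srsf3 had Srsf7 (0.69). Srsf5, Srsf11, Tra2a and Tra2b had no other included gene of the 10 among theirs. The genes most like Srsf5 were Rnf111 (0.90), Kmt5b (0.89) and Thrap3 (0.89). Those most like Tra2a were Clk3 (0.79), Mfhas1 (0.79) and Mpp4 (0.77), and those most like Srsf3 were Trub1 (0.78), Hnrnpab (0.71) and Bcl3 (0.71). The points share libraries and depth, and r is given as a description.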

How the data were processed

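The authors deposited whole-number read counts per gene and per polyadenylation site for all 144 libraries, and these raw counts were used. The deposited TMM-normalized tables were not used. STAR 2.4.2a, edgeR and HOMER are named in the submitters' processing notes with the builds mm10 and GRCm38.p5. The role of each tool, and whether reads were counted by strand, are not given in the sources used here. From the counts, edgeR 4.0.16 (R 4.3.3) was fitted across all genes or sites with TMM scaling, a mean of at least 10 counts and robust quasi-likelihood F tests, adjusted by Benjamini-Hochberg. Rhythms were a 24 h cosine and sine (2 degrees of freedom). Site usage took the gene's site total plus 0.5 as offset. It was tested for genes with a mean of at least 50 site counts and at least 2 sites of 5% or more. Both minimums were taken over all libraries of the comparison. Levels (CPM) are gene counts scaled to the library's total gene count. No 2 of the 6 libraries of any group held identical values. Depth limits the polysomal site shares of Clk1, Clk4 and Tra2a most. The 10 genes, the pathway lists and the marker lists were chosen with earlier results of these data known. The genes were named by rule as all 10 genes, every site with at least 5% of its gene's site counts in any series, and called genes of the lists. The fits were tested on simulated data. Alternatives were other scalings, filters, DESeq2 1.42.0, a replicate block, time as a factor, replicates 1 to 3 and 4 to 6 apart, and each replicate left out.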

Additional observations from a re-analysis of the deposited data

Results flagged for a closer look

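Each group of 6 libraries was searched for a library far from the others, for each of the 10 genes in the 24 groups of series and time. Of the 240 sets of values 14 held such a library, and chance flags about 1 in 20 groups. In Bmal1-/- total RNA, Srsf2 was 117.3 CPM in replicate 2 at ZT18, where the others lay between 62.2 and 71.6. Srsf3 was 71.6 CPM in replicate 6 at ZT14, and Srsf7 was 34.5 in replicate 6 at ZT22. Srsf6 was 57.8 CPM in replicate 1 at ZT10 and 51.0 in replicate 2 at ZT14, and Tra2a was 35.1 in replicate 1 at ZT18. In wild-type total RNA, Srsf2 was 106.2 CPM in replicate 1 at ZT14, Srsf7 was 43.1 in replicate 4 at ZT2 and 10.8 in replicate 5 at ZT6, and Srsf11 was 89.1 in replicate 4 at ZT22. In nuclear RNA, Srsf7 was 60.7 and Tra2b was 49.5 CPM in replicate 5 at ZT22, one of the libraries with Xist over 100 CPM, and Tra2a was 122.8 in replicate 6 at ZT6. In polysomal RNA, Clk4 was 15.3 CPM in replicate 1 at ZT18. The library with 10.8 CPM of Srsf7 was the lowest of its group, and the others named here were the highest.

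Srsf5 was called as having different rhythms in the mutant and the wild type by a test of the difference itself in total RNA. The log2 size was 0.54 (edgeR, adjusted p = 0.0485). The call was near the threshold and was lost without replicate 1, 2, 3, 5 or 6 (highest adjusted p = 0.273, edgeR). It was also lost with median-ratio size factors (adjusted p = 0.0572, edgeR).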

How the results depend on the processing

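Of the single values recomputed under the alternatives, 4581 kept their side of the threshold, 44 passed it newly, 129 no longer passed it and 6 were counted as reversed. Direction was compared only for values called in the main or the alternative fit, and not for rhythm differences. Other values may thus have changed direction uncounted. The calls that held in every alternative were 6 of 8 nuclear levels, 7 of 9 polysomal levels, 2 of 6 Bmal1-/- levels, 24 of 31 nuclear and 21 of 30 polysomal site usages, and none of the rhythms, rhythm differences or Bmal1-/- site usages. In Bmal1-/- liver with replicates 1 to 3, the values counted as reversed were Srsf6 (0.22), Tra2b (−0.00034) and the Srsf6 site 1882 bp before the end (−0.0122). In nuclear RNA they were the upstream Srsf7 site with the unfiltered site list (−0.16) and the Srsf5 site 970 bp before the end with replicates 1 to 3 (−0.01408). In polysomal RNA it was the Clk4 site 5944 bp before the end with replicates 4 to 6 (−0.0899). The cause was not tested.

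The 3 wild-type total rhythms became 0 with replicates 1 to 3, 1 with replicates 4 to 6, and 1 to 3 with 1 replicate left out. With time as a factor they numbered 3, but Srsf6 was lost (adjusted p = 0.151, edgeR) and Tra2b was called (0.40, adjusted p = 0.0367, edgeR). The 1 polysomal rhythm became 0 with time as a factor, with replicates 1 to 3 and with replicates 4 to 6, and 0 to 1 with 1 replicate left out. The 1 rhythm difference of Bmal1-/- liver became 0 with median-ratio factors, with a mean of at least 1 count, with replicates 1 to 3, with replicates 4 to 6 and without the farthest library of each series, and 0 to 1 with 1 replicate left out. The 6 Bmal1-/- levels became 3 to 5 with 1 replicate left out. The 2 site usage rhythms in total RNA became 1 with the unfiltered list, 0 with replicates 1 to 3, with replicates 4 to 6 and with any 1 replicate left out (0 to 0), 4 without the farthest libraries and 1 without the libraries with Xist over 100 CPM. With replicates 1 to 3 none of the 5 Bmal1-/- site usages was called, and the 2 called were other sites, the first Srsf5 site (−0.33) and the Srsf11 site 1910 bp before the end (−0.29). With 1 replicate left out 3 to 6 were called. The alternatives without the farthest or the Xist libraries, and with library totals as scaling, were chosen after seeing the data.

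Series share replicate numbers, but no label says that a number marks the same animal. Same-numbered nuclear and total libraries deviated together (mean r 0.35, over 0.1 in 34 of 36 pairs, best with their own number in 32 of 36), polysomal ones did not (−0.13, over 0.1 in 1 of 36) and Bmal1-/- ones did in 18 of 36. With the replicate block the polysomal rhythms numbered 2, with Tra2b added (0.60, adjusted p = 0.0171, edgeR). The total RNA site usage rhythms numbered 4, with the middle Tra2a site (1.02, adjusted p = 0.0203, edgeR) and the Srsf5 site 347 bp before the end (0.46, adjusted p = 0.0414, edgeR) added. The Bmal1-/- site usages also gained the most upstream Srsf2 site (0.28, adjusted p = 0.0409, edgeR).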

Other observations

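Of the sites outside the authors' filtered list, 7 in these genes averaged at least 20 counts per library in some series. In Clk1 an upstream cluster at chr1:58416644-58416694, 4681 bp before the gene's end, held 2.31 ± 0.723 CPM in total RNA, 14.1 ± 8.82 in nuclear RNA and 0.267 ± 0.391 in polysomal RNA (SD, n = 36 each). Its neighbour at chr1:58416720-58416737 held 1.79, 7.38 and 0.131 CPM. In Tra2a a site at chr6:49261060-49261076, 17147 bp before the end, held 1.38, 11.6 and 0.529 CPM. In Srsf11 the sites chr3:158024752-158024776 and chr3:158030212-158030273 held 1.95 and 2.30 CPM in total, 6.71 and 9.36 in nuclear and 0.682 and 0.473 in polysomal RNA. The site chr17:80204531-80204540 in Srsf7, 4455 bp before the end, held 0.534, 5.63 and 0.0607 CPM. That minimum was chosen after seeing the data, and the sites carry no test. The means of these 6 sites were highest in nuclear RNA. The other site, chr3:158013969-158014000 in Srsf11, held 2.74, 2.29 and 0.618 CPM, with its highest mean in total RNA.

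Srsf1, the founding SR protein and not among the 10 genes, held 0 to 3 counts in the 6 libraries of polysomal replicate 1 and 77 to 650 counts in the 30 libraries of polysomal replicates 2 to 6 (41.5 ± 9.73 CPM, SD, n = 30). It was at most 10 counts in wild-type total, 5 in nuclear and 12 in Bmal1-/- libraries. The 1 listed site of Srsf1, chr11:88051416-88051427 in the unfiltered list, averaged 0 counts in polysomal replicate 1 and 26.1 in replicates 2 to 6.

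Srsf6 in Bmal1-/- against wild-type total RNA was at 0.22 on the log2 scale in replicates 1 to 3 (adjusted p = 0.00237, edgeR) and at −0.24 in replicates 4 to 6 (adjusted p = 0.00191, edgeR), against −0.005 over all 6. The labels give no batch for the replicate numbers.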
